A study of Mus musculus with 2 samples.

Results

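The 4 genes of GABA synthesis, vesicular transport and breakdown, Gad1, Gad2, Slc32a1 and Abat, were described across the accessible chromatin of the mouse cortex. They are 4 of 21911 protein-coding genes and were taken by name from a list made for this purpose. Each was examined over its GENCODE M21 gene body plus 50 kb on each side, in mm10 coordinates. Both libraries were DNase-seq of the left cerebral cortex of B6CASTF1/J males at 14 days of age, the first-generation hybrid of C57BL/6J and CAST/EiJ mice. They formed 1 group with no treatment and no second condition. By their labels, replicate 1 came from 3 males and replicate 2 from 1 male, and both carried the same donor identifier, so the spread between libraries may not be a spread between unrelated animals. Reads of the hybrid were placed on the C57BL/6J sequence, and the effect of CAST/EiJ variants on the values was not tested.

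GABA is the main inhibitory transmitter of the adult brain. The glutamate decarboxylases encoded by Gad1 and Gad2 make it from glutamate, the former through much of the cell and the latter mostly at nerve terminals. The transporter encoded by Slc32a1 loads it into synaptic vesicles, and the transaminase encoded by Abat degrades it in the mitochondria of neurons and astrocytes. The first 3 genes are classical markers of inhibitory neurons, which are a minority of cortical neurons, whereas Abat is expressed more widely. DNase I cuts DNA that is not packed into nucleosomes, so a peak of cutting marks an accessible site, and a footprint is a short protected stretch within it. In bulk tissue, a site open in fewer cells and a site less open in each cell cannot be told apart.

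The strongest distal site of each gene is shown first, because at Gad1, Gad2 and Slc32a1 it exceeded every promoter peak of the gene. A distal site lay over 1000 bp from every annotated start of any gene. Sequences are the GRCm38 plus strand, which is the coding strand of all 4 genes, written 5′ to 3′, and capitals mark bases inside a footprint of both libraries. The Gad1 site is chr2:70558241-70558400, the Gad2 site chr2:22721941-22722120, the Slc32a1 site chr2:158653121-158653280 and the Abat site chr16:8540881-8541080.
Gad1 site: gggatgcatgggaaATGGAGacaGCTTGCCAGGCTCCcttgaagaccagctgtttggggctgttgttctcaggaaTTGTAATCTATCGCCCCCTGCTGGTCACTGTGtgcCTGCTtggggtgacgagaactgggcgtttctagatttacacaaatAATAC
Gad2 site: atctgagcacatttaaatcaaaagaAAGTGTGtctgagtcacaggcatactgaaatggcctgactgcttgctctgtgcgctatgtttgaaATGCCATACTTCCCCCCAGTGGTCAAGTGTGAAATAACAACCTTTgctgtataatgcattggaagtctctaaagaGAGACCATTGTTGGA
Slc32a1 site: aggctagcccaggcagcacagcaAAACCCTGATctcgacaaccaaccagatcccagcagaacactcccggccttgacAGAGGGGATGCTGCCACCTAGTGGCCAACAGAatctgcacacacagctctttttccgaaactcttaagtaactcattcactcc
Abat site: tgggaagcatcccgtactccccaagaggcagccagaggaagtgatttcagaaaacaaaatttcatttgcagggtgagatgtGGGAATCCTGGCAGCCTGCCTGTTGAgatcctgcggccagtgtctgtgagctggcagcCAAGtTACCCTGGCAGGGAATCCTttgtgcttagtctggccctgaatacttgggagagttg

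Each of these 4 sites held a long protected stretch that both libraries found in nearly the same place. At Gad1 it was 33 bp wide in replicate 1 and 32 bp in replicate 2, at Gad2 45 and 46 bp, at Slc32a1 32 and 39 bp, and at Abat 26 bp in both. Footprints had a median width of 10 bp in both libraries. Of all footprints, 4.66% and 4.47% were at least 32 bp wide and 10.2% and 10.6% at least 26 bp. These are shares of single footprints, whereas each stretch was picked from 2 to 5 footprints of a strong site. Widths at other sites of like signal were not compared. The capitals covered 62 of 160 bases at Gad1, 67 of 180 at Gad2, 42 of 160 at Slc32a1 and 49 of 200 at Abat.

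A second pair of distal sites is shown for the known factor words that lay in footprints of both libraries. The Slc32a1 site in its only intron, chr2:158613621-158613840, held AGGGGGCGC on the minus strand at 158613723 to 158613731, a word of CTCF, the zinc finger protein that anchors chromatin loops. The site runs into the second exon of the gene. The Abat site in intron 1, chr16:8539241-8539500, held GTTGCCATG, a word of the RFX factors of ciliated and neural cells, on both strands at 8539397 to 8539405 and 8539402 to 8539410. The 2 matches share bases.
Slc32a1 intron site: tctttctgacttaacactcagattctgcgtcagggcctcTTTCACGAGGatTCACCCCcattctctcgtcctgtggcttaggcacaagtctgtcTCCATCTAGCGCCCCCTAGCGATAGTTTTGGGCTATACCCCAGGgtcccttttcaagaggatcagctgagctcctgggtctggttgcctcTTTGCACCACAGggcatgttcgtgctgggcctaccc
Abat intron site: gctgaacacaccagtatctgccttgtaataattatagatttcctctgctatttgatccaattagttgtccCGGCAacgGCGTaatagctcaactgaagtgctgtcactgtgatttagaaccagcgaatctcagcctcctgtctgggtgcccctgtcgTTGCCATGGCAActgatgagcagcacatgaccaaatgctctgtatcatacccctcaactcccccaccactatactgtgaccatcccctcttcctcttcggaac

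The CTCF word lay within a footprint of 46 bp in replicate 1 and 44 bp in replicate 2. It occurs in 0.869% of windows of the same 220 bp width at all 138945 distal sites. The RFX matches overlapped footprints of 19 and 12 bp, and the word occurs in 1.27% of windows of 260 bp. These are matches of letters and not shown binding sites.

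Promoter sequence is shown because the weakest start, that of Gad2, carried a word of the repressor REST, which silences neuronal genes outside neurons. RefSeq's promoter table for this build matched 3 of the 4 genes. Stretches upstream of the start are printed for Gad1, chr2:70561879-70562041, and Gad2, chr2:22622077-22622204, with capitals marking any of the 18 words searched.
Gad1 promoter: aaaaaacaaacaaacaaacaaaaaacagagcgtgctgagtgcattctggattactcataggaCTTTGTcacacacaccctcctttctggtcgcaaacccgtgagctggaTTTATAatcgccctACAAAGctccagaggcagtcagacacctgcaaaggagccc
Gad2 promoter: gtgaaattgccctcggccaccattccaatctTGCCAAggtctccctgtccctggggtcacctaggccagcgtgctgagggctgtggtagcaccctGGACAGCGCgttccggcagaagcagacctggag

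In the Gad2 stretch, GGACAGCGC, the right-hand part of the REST element, lay at 22622172 to 22622180 on the plus strand, 33 bp before the start. It is found in 0.405% of 32851 RefSeq promoters of 300 bp, and it overlapped no footprint in either library. TTGGCA, a partial site of the NFI factors, lay in the same stretch on the minus strand and occurs in 14.1% of those promoters. The Gad1 stretch held TATAAA, the TATA box word, on the minus strand, and ACAAAG, a Sox factor word, on each strand. These occur in 13.6% and 18.7% of RefSeq promoters. No base of either stretch lay in a footprint of both libraries.

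All 4 genes had an open promoter in both libraries, but the promoters of the 3 inhibitory neuron genes were low and that of Abat was high. Promoter peaks were those up to 1000 bp from an annotated start of the gene, and 66.7% of all protein-coding genes had one in both libraries. The promoter signal is the deposited value of the strongest such peak, taken here as the highest cutting density scaled to depth. Values carry mean ± SD over n = 2 libraries, and with 1 group there is no test.

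Gad1 (ENSMUSG00000070880.10, chromosome 2, 70553072 to 70602014, 7 annotated starts) had a promoter signal of 1.83 in replicate 1 and 1.48 in replicate 2 (1.65 ± 0.246, n = 2). That stood at percentiles 30.8 and 23.9 of all open promoters, whose median was 3.47 and 3.91. The peak lay 8.14 kb into the annotated gene, 831 bp before a cluster of 3 closely spaced starts. The peak directly on that cluster was lower, 0.734 and 0.743 (0.739 ± 0.00651, n = 2), and became the promoter value when the window was 500 bp. No peak was listed within 1000 bp of the outermost start, so the gene had no promoter peak when its 5′ end alone was used.

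Gad2 (ENSMUSG00000026787.3, chromosome 2, 22622205 to 22693874, 2 annotated starts) had the lowest promoter signal of the 4, 0.644 and 0.547 (0.595 ± 0.0689, n = 2), at percentiles 11.2 and 7.22. The strongest peak was centred 358 bp inside the gene, and a weaker site, with 0.341 and 0.387, lay at the start. Its replicate 1 peak ended just before the start and its replicate 2 peak spanned it. The strongest peak had 5 footprints in replicate 1 and 0 in replicate 2.

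Slc32a1 (ENSMUSG00000037771.11, chromosome 2, 158610767 to 158615748, 1 annotated start) had 0.990 and 0.657 (0.823 ± 0.235, n = 2), at percentiles 18.3 and 9.55. The libraries differed in which promoter peak was strongest. In replicate 1 it was centred 206 bp inside the gene, and in replicate 2 it was 96 bp before the start. Both peaks also lay within 1000 bp of a start of the noncoding gene Gm14204, and the inner one also near a start of Gm14205, so their signal cannot be assigned to Slc32a1 alone.

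Abat (ENSMUSG00000057880.12, chromosome 16, 8513429 to 8621568, 7 annotated starts) had 5.28 and 7.06 (6.17 ± 1.25, n = 2), at percentiles 67.9 and 72.6. The peak was centred 18 bp before its first start and carried 6 and 5 footprints. GGGCGG, the word of Sp1 and Klf factors, lay there 98 and 72 bp before the start, in footprints of both libraries, and is present in 35.7% of RefSeq promoters.

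With the 1000 bp window the order of the promoters was Abat, Gad1, Slc32a1 and Gad2 in both libraries. With 500 bp the Gad1 mean, 0.739, was below the 0.823 of Slc32a1. With 1000 bp, Abat and Gad1 stood clear of their neighbours, whereas the lowest Slc32a1 value (0.657) and the highest Gad2 value (0.644) nearly met, and the means of these genes lay closer together than the SD of Slc32a1. CpG dinucleotides were counted around the starts and not at the peaks, and their part in the promoter signals was not tested. In the 2000 bp around the start richest in CpG, Gad1 had 140, Gad2 118 and Slc32a1 144, each above the median of 69 for protein-coding genes, and Abat had 59. Among open promoters whose CpG count lay within 10%, Gad1 stood at percentiles 22.1 and 15.5, Gad2 at 3.40 and 2.54, Slc32a1 at 7.80 and 3.81, and Abat at 76.7 and 79.9. The 3 inhibitory neuron genes were therefore placed lower by this comparison than among all promoters, and Abat higher.

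**Figure D1:**
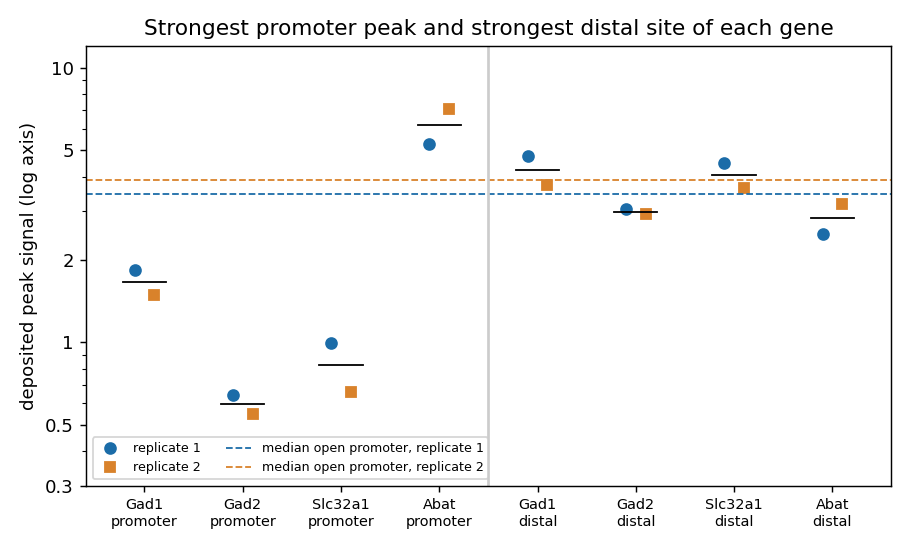
Deposited peak signal on a log axis for the strongest promoter peak (left) and the strongest distal site (right) of each gene, with replicate 1 as circles, replicate 2 as squares and the mean as a bar; dashed lines are the medians of all open promoters, 3.47 and 3.91. Gad1, Gad2 and Slc32a1 lie below these medians at their promoters and well above their own promoters at their distal sites, and Abat shows the opposite order.

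Apart from the starts of other genes, the strongest accessible site in the windows of Gad1, Gad2 and Slc32a1 was a distal one, and at Abat it was the promoter. The Gad1 site, 5.25 kb inside the annotated gene and 3721 bp from the nearest start, had 4.78 and 3.73 (4.25 ± 0.742, n = 2), at percentiles 95.9 and 93.7 of all peaks. It lies in an intron shared by the longest Gad1 transcript and the antisense gene Gad1os. The Gad2 site lay 28157 bp beyond the 3′ end of the gene, 99.8 kb from its start, with 3.05 and 2.93 (2.99 ± 0.0847, n = 2). It was intergenic, and the nearest protein-coding start was that of Apbb1ip, 52063 bp away.

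The strongest Slc32a1 site, 42.4 kb downstream of the start, had 4.50 and 3.64 (4.07 ± 0.610, n = 2). The next, at 31.3 kb, had 3.29 and 2.79 (3.04 ± 0.351, n = 2). Both were intergenic and nearer to the starts of Ppp1r16b and Actr5 than to Slc32a1, so their target gene is not given by position. The site in the Slc32a1 intron, printed above, had 2.21 and 1.43 (1.82 ± 0.556, n = 2) and was the strongest one within 10 kb of the start.

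Abat was led by the intron 1 site at 27.6 kb, with 2.48 and 3.19 (2.83 ± 0.50, n = 2). An intron 6 site at 82.2 kb had 1.46 and 1.64, and the intron site with the RFX word, at 25.9 kb, had 1.18 in both libraries. Intron 1 of this gene held 5 of its distal sites.

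**Figure D2:**
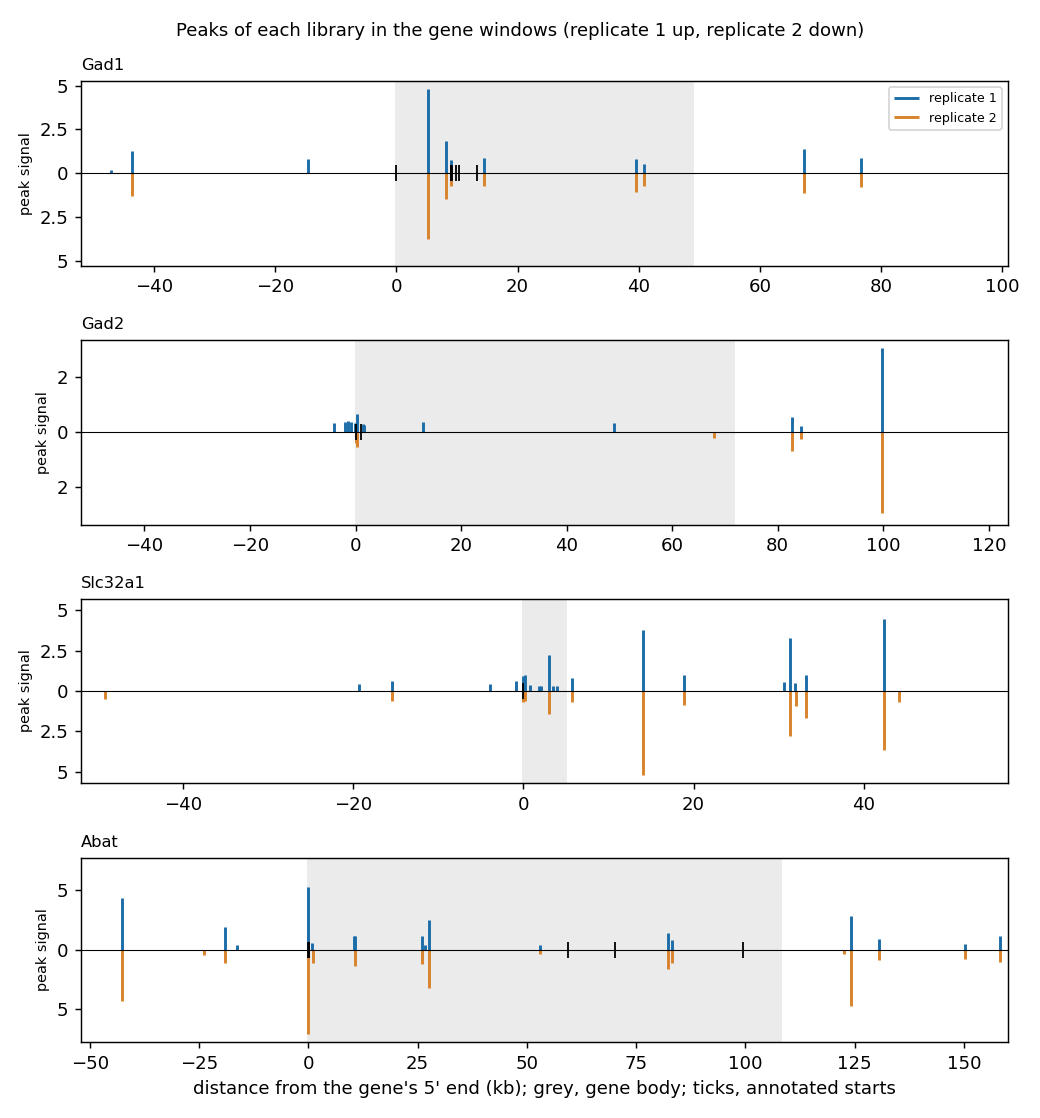
Peaks of replicate 1 (up) and replicate 2 (down) in the 4 windows, by distance in kb from the 5′ end of each gene; line height is the deposited peak signal, grey marks the gene body and ticks mark annotated starts. The tallest lines lie at 5.25 kb in Gad1, 99.8 kb in Gad2 and at the start of Abat, and in the Slc32a1 window at 42.4 kb in replicate 1 and at the Actr5 start, 14.1 kb downstream, in replicate 2.

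Distal sites were unevenly spread over the 4 windows. Slc32a1, the shortest gene, had 16 distal sites, or 15.2 per 100 kb, at percentile 96.6 of all protein-coding genes, whose median was 5.64 per 100 kb. Gad1 had 8 (5.37 per 100 kb), Gad2 had 9 (5.24) and Abat 13 (6.25), at percentiles 47.6, 46.6 and 55.9. By library the counts were 8 and 6 at Gad1, 8 and 4 at Gad2, 14 and 10 at Slc32a1, and 11 and 11 at Abat. The member gene had the nearest protein-coding start at 5, 6, 8 and 7 of these sites, respectively.

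The windows also held starts of other genes. Of these, only that of Actr5 exceeded the promoter of the member in whose window it lay. The start of Actr5, a chromatin remodeller subunit gene, had 3.82 and 5.21, and that of the methyltransferase gene Mettl22 had 4.40 and 4.28. The shared start of Pmm2 and Tmem186 had 2.85 and 4.71, that of Erich2 1.25 and 1.28, and that of Carhsp1 1.15 and 1.03. A peak of 0.341 near Gm14205 was listed in replicate 1 only.

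The windows held 65 sites in all, 13 at promoters, 6 at other genes' starts and 46 distal, of which 39 (60%) were found in both libraries by an overlap of at least 1 bp. The Wilson 95% interval was 47.9 to 71.0% and covers counting error only. Over the genome 63% of sites were found in both. For distal sites the counts were 26 of 46, with 60.2% over the genome. Sharing was highest at Gad1 (6 of 8 distal sites) and Abat (9 of 13), and lower at Slc32a1 (8 of 16) and Gad2 (3 of 9).

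Most sites of 1 library were those of replicate 1. In the windows 21 sites were listed in replicate 1 only and 5 in replicate 2 only, or 32.3% and 7.69% of the 65, compared with 17.2% and 19.8% of all sites. Within 5 kb of the members' starts 13 of 24 sites were listed in replicate 1 only, 0 in replicate 2 only and 11 in both. Around all protein-coding starts these shares were 16.0% for replicate 1 only and 15.8% for replicate 2 only. Around the starts of interneuron genes they were 28% and 8% of 25 sites, and around oligodendrocyte lineage genes 28.6% and 14.3% of 28. Around striatal projection neuron genes they were 13.6% and 9.09% of 22, and around astrocyte genes 13.6% and 4.55% of 22. Cortical excitatory neuron genes had 11.5% and 24.6% of 61. Microglial genes had 5% and 30% of 20, endothelial genes 11.1% and 33.3% of 9, and thalamic genes 11.1% in both of 9. Choroid plexus genes and genes of other tissues each had 50% and 0% of only 2 sites.

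Around the Gad2 5′ end replicate 1 had 8 peaks within 5 kb and replicate 2 had 2, and around that of Slc32a1 it had 10 against 3. Over all windows the sites of replicate 1 only had a median signal of 0.365 and a range of 0.180 to 0.824, compared with a median of 0.990 in replicate 1 for the shared sites. The authors' intervals of raised cutting, listed up to a false discovery rate of 0.05, came from the same libraries as the peaks. Their coverage is therefore no separate evidence of the difference in listed peaks. Within 2500 bp of the starts they covered 1331 bp in replicate 1 and 489 bp in replicate 2 at Gad2, and 1395 bp and 330 bp at Slc32a1. At Gad1 they covered 667 and 629 bp, and at Abat 916 and 827 bp. Of the 21 sites of replicate 1 only, 1 overlapped such an interval of replicate 2. The matching share over all sites of replicate 1 only is not given here, so this count is not a trait of these windows.

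**Figure D3:**
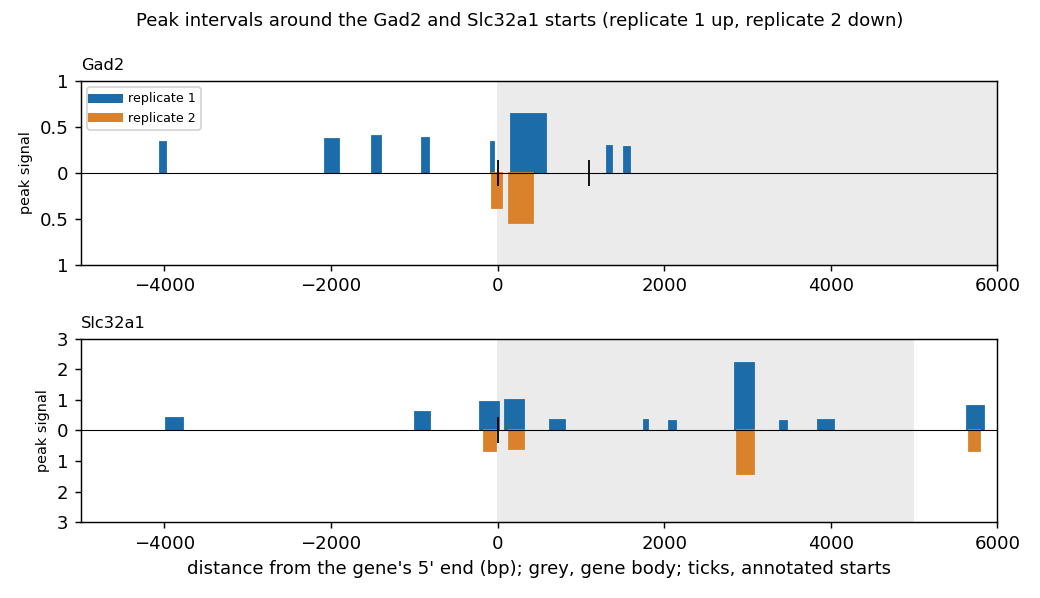
Peak intervals within about 5 kb of the Gad2 and Slc32a1 starts, by distance in bp from the 5′ end, with the deposited signal of replicate 1 up and of replicate 2 down; grey marks the gene body and ticks the annotated starts. Within 5 kb of the 5′ end replicate 1 shows 8 peaks at Gad2 and 10 at Slc32a1, the highest of the latter at 2.21, where replicate 2 shows 2 and 3.

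The strongest promoter peaks of Gad1, Gad2 and Slc32a1 were lower in replicate 2 relative to replicate 1, and that of Abat was slightly higher. Ratios are log2 of replicate 2 over replicate 1, centred on the median of all 116514 shared sites, and that median was 0.25 before centring. The centred ratio was -0.56 at Gad1, -0.49 at Gad2, -0.84 at Slc32a1 and 0.17 at Abat. The peaks nearer the starts had ratios of smaller size, -0.23 on the Gad1 start cluster and -0.07 at the Gad2 start. The Slc32a1 ratio compares different peaks, because the strongest peak differed between libraries. Taken singly, its peak inside the gene had -0.94 and the peak before the start -0.76. The SD of the ratio of the strongest peaks over all 14609 promoters open in both was 0.33. Of those promoters, 91.4%, 87.4%, 98.4% and 39.7% had a ratio closer to 0 than Gad1, Gad2, Slc32a1 and Abat, respectively. Among all shared sites the same share was lower, 80.1% for the Gad1 peak, 74.1% for Gad2 and 30.1% for Abat. For the Slc32a1 peaks inside the gene and before the start it was 97.2% and 92.4%. None of the 4 passed 2-fold, which 0.554% of all promoters did. The counting error of the ratio, if the smallest step between deposited values is 1 read, was 0.12, 0.20, 0.17 and 0.06 in the same order. When all promoter peaks of a gene were summed, Gad2 had 1.94 and 0.934 and Slc32a1 2.88 and 1.27, and their ratios were past 2-fold, at -1.30 and -1.43. Summed in the same way, 2.29% of the promoters open in both libraries were past 2-fold. The sums follow the number of listed peaks, 5 and 2 at Gad2 and 4 and 2 at Slc32a1.

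Over the 39 shared sites of the windows the median ratio was -0.26 with an SD of 0.44, compared with an SD of 0.43 over all shared sites. The ratios of the strongest distal sites were -0.61 at Gad1, -0.31 at Gad2, -0.56 at Slc32a1 and 0.11 at Abat, so they had the same sign as the gene's promoter. The site in the Slc32a1 intron had -0.89. A single site passed 2-fold, compared with 1.92% of all shared sites. It lay 19.0 kb upstream of Abat, with 1.90 and 1.07 and a ratio of -1.08, and was nearest to the start of Mettl22. The highest ratio, 0.72, belonged to the second Abat promoter peak, with 0.568 and 1.11.

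**Figure D4:**
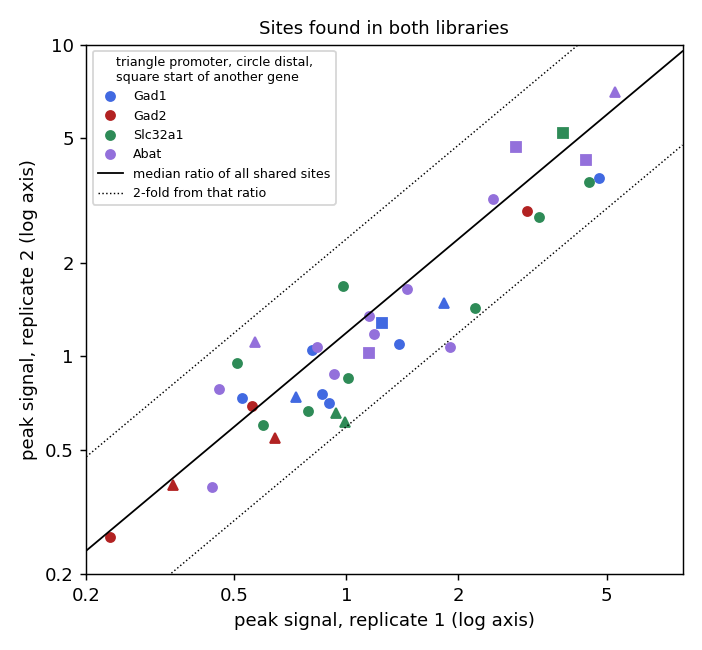
Deposited signal of the 39 sites found in both libraries, replicate 1 against replicate 2 on log axes, coloured by gene, with triangles for promoters, circles for distal sites and squares for starts of other genes; the solid line is the median ratio of all shared sites and the dotted lines are 2-fold from it. The promoters of Gad1, Gad2 and Slc32a1 lie below or on the solid line, and 1 distal site near Abat lies past the lower dotted line.

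Marker lists differed in the sign of this ratio. Over all promoters open in both libraries its median was -0.03, and the share of them below 0 was not counted. Of all protein-coding genes, 66.7% were open in both. Of 12 interneuron genes 9 were open in both libraries, with medians of 1.21 and 1.06, and 8 of the 9 had a ratio below 0 (median -0.42). The interneuron factor genes Dlx5 (-0.81), Dlx2 (-0.67) and Dlx6 (-0.54), the calcium buffer gene Pvalb (-0.44) and Npy (-0.42) were among them. So were Dlx1 (-0.25), Adarb2 (-0.18) and Lhx6 (-0.02), which were nearer to the centre. Htr3a went the other way, at 0.27. No promoter peak was listed for Nkx2-1 or Sst, and Vip had 0.203 in replicate 2 only. All 6 striatal projection neuron genes, whose cells are also inhibitory, were open, with medians of 1.42 and 1.39, and had ratios below 0 (median -0.42). Of 7 cortical excitatory neuron genes all were open, with medians of 1.66 and 2.91, and 6 had ratios above 0 (median 0.39). The astrocyte list had 5 of 5 open and a median ratio of -0.28, with 3 below 0. Few genes of the remaining lists were open in both libraries. Their median ratios were -0.28 for 3 oligodendrocyte lineage genes, -0.20 for 2 microglial genes and -0.38 for 2 endothelial genes, and the 1 thalamic gene had 0.12. Of the choroid plexus genes, Ttr and Folr1 had no peak and Kl had 0.725 in replicate 1 only. Of the genes of other tissues, Ddx4, Gata1 and Cd3e had none and Alb had 0.275 in replicate 1 only. The part of cell makeup in the ratios of Gad1, Gad2 and Slc32a1 was not tested.

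**Figure D5:**
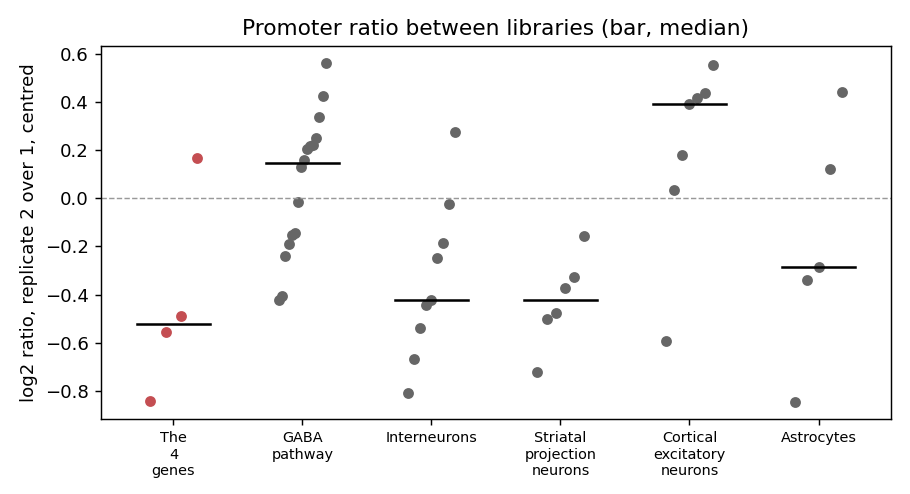
Centred log2 ratio of the promoter signal, replicate 2 over replicate 1, for each gene open in both libraries, with 1 point per gene and a bar at the median of each list. Gad1, Gad2 and Slc32a1 lie between -0.84 and -0.49, the interneuron and striatal medians are -0.42, the astrocyte median is -0.28 and the excitatory median is 0.39.

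Genes that supply, move and break down GABA and its precursors had a higher median promoter signal than each of the 3 inhibitory neuron genes, with exceptions among the transporters. Of 19 such genes, 16 (84.2%) were open in both libraries, compared with 66.7% of all protein-coding genes. Their medians were 4.76 and 5.80, compared with 3.47 and 3.91 over all open promoters. Their ratios were above 0 at 9 and below 0 at 7 (median 0.14). Gls2, which encodes an enzyme that makes glutamate from glutamine, had 8.45 and 11.6, and the glutamine synthetase gene Glul had 5.75 and 6.78. Of the enzymes that convert glutamate, Glud1 had 4.79 and 4.83, Got1 6.19 and 9.90, and Got2 3.93 and 4.23.

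Pdxk, a kinase gene of the vitamin cofactor that both decarboxylases and the transaminase need, had 5.58 and 7.26. Hspa8 and Dnajc5 encode chaperones of synaptic vesicles and had 12.8 and 17.1 and 7.54 and 10.5. Aldh5a1, which acts after Abat in GABA breakdown, had 2.77 and 2.46, and Aldh9a1 had 1.99 and 3.00. The amino acid transporter genes Slc38a1, Slc38a2 and Slc38a3 had 1.69 and 1.81, 3.09 and 2.78, and 1.20 and 1.70. The plasma membrane GABA transporter gene Slc6a11, active in astrocytes, had only 0.582 and 0.608, about as low as Gad2, although its window held 37 distal sites. Slc6a13 had 0.284 in replicate 1 only, and no promoter peak was listed for Slc6a12 or Slc38a5.

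Footprints were about as dense in these windows as elsewhere but differed in how often the libraries shared them. Peaks of the windows held 2.43 footprints each in replicate 1 and 2.36 in replicate 2, compared with 2.27 and 2.19 over all peaks. Of the footprints in the windows, 48.7% of those of replicate 1 overlapped one of replicate 2, and 69.5% of those of replicate 2 overlapped one of replicate 1, compared with 55.0% in both directions over all footprints. Replicate 1 also had more sites here that replicate 2 did not list. At the strongest Gad2 promoter peak no footprint was shared, and at the Abat promoter 5 of 6 and 5 of 5 were.

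At least 1 of the 18 words, searched on both strands, was found in 30 of 46 distal sites, compared with 66.7% of all distal sites. CATCTG and CAGATG are each other's reverse complement, so their matches are the same matches. Of 79 matches in promoter and distal sites, 14 overlapped footprints of both libraries. Both counts take each CATCTG match again as CAGATG, and the matching share over all sites is not given here. The homeodomain word TAATTA, which Dlx and Lhx factors can read, was in 3 of 46 distal sites (6.52%, compared with 3.35% of all), and none of these matches overlapped a footprint in both libraries. E-box word CATCTG was in 4 of 46 (8.70%, compared with 23.0%).

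The CTCF words stood in 5 distal sites: AGGGGGCGC in 2 (4.35%, compared with 0.877% of all distal sites) and AGGTGGCGC in 3 (6.52%, compared with 0.743%). In 2 of the 5 the match overlapped footprints of both libraries, in the Slc32a1 intron and 67.4 kb from the Gad1 5′ end, where the signal was 1.38 and 1.09. After the sequences of the strongest sites had been read, shorter words were tried. The first, CCANNAGNG or CCANNGGNG, was in 12 of 46 distal sites (26.1%), near the 25.0% of all distal sites. It was then replaced by AGGNGGC, which was in 15 of 46 (32.6%, compared with 17.9%), so the latter was chosen with counts in view. AGGNGGC lay in footprints of both libraries at 6 of the 26 distal sites found in both, compared with 10.4% of all such sites. These 6 included the strongest sites of Gad1 and Slc32a1 and the next strongest of each. CCANNGGNG, from the pair already set aside, matched within the wide footprint of the Gad2 site. That word occurs in 8.89% of windows of 180 bp at all distal sites. It was tried after this sequence had been read, so the match is no support for CTCF there. Distal sites with a footprinted AGGNGGC had a median signal of 1.43 and 1.37 over the genome, compared with 0.597 and 0.756 for all shared distal sites.

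Genes nearest in pattern were found by Euclidean distance over 4 scaled values, the log2 promoter signal and the log2 number of distal sites in each library, among 14609 genes open in both. Gad1 was nearest to Spata3, Egln3 and Plod1, and Gad2 to Fbxw10, Pcare and Dock11. Slc32a1 was nearest to the adrenergic receptor gene Adra2c, which had 0.985 and 0.688 with 16 and 11 distal peaks, then to Begain and Dlg5. Abat was nearest to Mdh1b, Cwc22 and Teddm2.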

How the data were processed

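DNase-seq peaks, footprints and false discovery rate intervals of 2 libraries were used as deposited, made by the authors per library on mm10, per the file headers. For the aligner, callers, versions and sequencing depth, nothing is given in the sources used here. The deposited peak signal, column 7 of the more inclusive list (150726 and 155536 peaks), was taken as the highest cutting density scaled to depth; low values were whole multiples of 0.00474 and 0.00614 within 0.05 of a step, and the median peak stood at 116 and 108 steps. The deposited intervals carry q-values (false discovery rates) up to 0.05. The score of the footprints was constant and unused.

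Peaks of both libraries sharing at least 1 bp were merged into sites. Promoter, distal and word definitions are in the text. Gene models were GENCODE M21. Named were the 4 genes, the 19 pathway genes (the counts include some not reported here), the 5 strongest distal sites and extreme ratios per gene, other genes' starts and the 3 genes nearest in pattern; further sites and marker genes were named after their values were seen. The members and lists were chosen with earlier results of these data known. With 1 group there was no test. Alternatives were the window, starts, peak list, flank, overlap, centring, summed peaks and each library alone. Peak overlap, distances and ratios were checked on simulated data. Computations used Python 3.11.15, NumPy 2.4.6, pandas 2.3.3 and pysam 0.24.0.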

Additional observations from a re-analysis of the deposited data

How the results depend on the processing

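Most of the 92 alternatives computed for the results of the 4 genes and the pathway list were counts, signals or shares, which cannot change sign. The promoter ratios of the 4 genes kept their sign with other centring, summed peaks and, where computed, the stricter list. They were not computed with another promoter window. With a window of 500 bp the Gad1 promoter signal, 0.739, fell below the 0.823 of Slc32a1. With the stricter peak list 2 of the 4 genes, Gad1 and Abat, kept an open promoter in both libraries, in place of 4, and 24 distal sites were left in place of 46. The share of all protein-coding genes open in both libraries with that list is not given here. The distal count was 18 with no flank, 23 with a flank of 10 kb and 26 when the gene had to have the nearest start; these settings take in less sequence by construction. It was 31 to 41 with either library alone. Summing promoter peaks put 2 promoter ratios past 2-fold in place of 0, at Gad2 and Slc32a1, compared with 2.29% of all promoters summed in the same way. Site ratios past 2-fold were 0 without centring and 2 with summed peaks, in place of 1. The share of sites found in both libraries was 72.5% among peaks above the median signal, in place of 60%. The genome-wide share for such peaks is not given here, so the rise cannot be called particular to these windows. Footprints per peak were 2.19 when wholly inside the peak and 3.04 in the stricter list, in place of 2.39, and 2.36 to 2.43 with either library alone. Site and word pairs were 20 inside footprints only, in place of 54, where CATCTG and CAGATG were counted apart. Open promoters of the 4 genes stayed at 4, and of the pathway list at 16 to 17, with either library alone. No paired analysis was possible because there is 1 group and no test. The promoter peaks of Gad2 listed in replicate 1 only stood at 59 to 80 steps, compared with 116 for the median peak. Absence from a list does not show that a site is closed, and the effect of depth on such sites was not tested.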
